A study of Mus musculus with 12 samples.

Results

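The genes described here were chosen as markers of regulatory T cells, the CD4+ T cells that restrain other lymphocytes. They are Foxp3, Ctla4, Il2ra, Ikzf2, Tnfrsf18, Tnfrsf4, Icos, Il10, Ccr8 and Tigit, a list of 10 genes chosen by name and found by mapping the 54109 Ensembl identifiers of the count table to GENCODE M21 symbols. Each symbol matched 1 identifier. Which cells expressed each gene was not tested. RNA came from mice with acute colitis caused by dextran sulfate sodium (DSS), a polymer that injures the colonic epithelium, and both genotypes received it. Wild-type (WT) mice were compared with Gpr15l-/- mice (KO), which lack a secreted ligand of the receptor Gpr15. Full colon tissue and LPMC (in common usage lamina propria mononuclear cells, released from the gut wall) were each sequenced in 3 WT and 3 KO libraries, 12 in all. There were no mice without DSS among them, and the labels used here give neither strain, age nor sex, nor whether each library is a different mouse. P-values therefore measure the spread between libraries, which may be technical.

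Regulatory T cells depend on the transcription factor FOXP3, take up interleukin-2 through a high-affinity receptor and hold back other cells with inhibitory receptors and interleukin-10. They are abundant in the colonic lamina propria, where they limit responses to the microbiota. GPR15 is a receptor that directs T cells, regulatory T cells among them, to the large intestine, and GPR15L is its epithelial ligand. The comparison of genotypes therefore asks whether transcripts of these cells differ in the gut when the ligand is missing. In RNA from a mixture of cells, fewer cells of a type and less RNA per cell cannot be told apart.

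Total counts per library ran from 45.4 to 140.7 M (M for 1e6 reads). The deleted gene, annotated as 2610528A11Rik (ENSMUSG00000096001, minus strand of chromosome 14, 37102140 to 37114022 in GRCm38), held 15639 to 80362 counts per WT library and 4 to 20 per KO library, so the labels matched the genotype. Summed over 15 T cell receptor complex and pan-T genes, levels were 10.9 to 68.9 CPM (counts per 1e6 reads, scaled by TMM factors) in colon and 121 to 429 CPM in LPMC. LPMC libraries were not free of other cells, since 10 epithelial markers summed to 11200 to 16100 CPM there, against 19000 to 37600 CPM in colon. Colon WT replicate 1 stood apart, with 1010 CPM over 9 B cell markers where the rest of the colon libraries had 2.69 to 24.4 CPM. It also held the highest level among colon libraries of 6 of the 10 genes, namely Foxp3, Ctla4, Il2ra, Tnfrsf4, Icos and Tigit.

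Promoter windows of 300 bases (250 before and 50 after a transcription start, RefSeq, build GRCm38.p6) were held for 7 of the 10 genes. The windows of the 4 genes below are shown because Foxp3, Ctla4 and Tigit rose together from colon to LPMC relative to Cd3e, while Tnfrsf18 did not. Each is written 5′ to 3′ along its gene, and capitals mark GGAAA or its reverse complement TTTCC, the core that NFAT factors recognise after T cell receptor signalling. The windows are chrX:7579426-7579725 (plus strand) for Foxp3, chr1:60908775-60909074 (plus strand) for Ctla4, chr16:43664135-43664434 (minus strand) for Tigit and chr4:156026072-156026371 (plus strand) for Tnfrsf18.
Foxp3: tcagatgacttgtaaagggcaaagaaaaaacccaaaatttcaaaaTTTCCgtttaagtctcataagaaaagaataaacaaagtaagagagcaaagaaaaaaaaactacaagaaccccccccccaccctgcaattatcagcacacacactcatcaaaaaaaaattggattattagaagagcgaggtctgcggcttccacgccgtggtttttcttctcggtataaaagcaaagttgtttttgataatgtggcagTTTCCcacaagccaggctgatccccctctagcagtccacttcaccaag
Ctla4: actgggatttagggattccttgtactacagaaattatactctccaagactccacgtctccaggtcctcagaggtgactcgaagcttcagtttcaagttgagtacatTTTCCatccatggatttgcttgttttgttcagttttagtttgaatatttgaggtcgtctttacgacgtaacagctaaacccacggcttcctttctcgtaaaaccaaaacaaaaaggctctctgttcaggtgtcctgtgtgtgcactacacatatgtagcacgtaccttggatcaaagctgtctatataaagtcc
Tigit: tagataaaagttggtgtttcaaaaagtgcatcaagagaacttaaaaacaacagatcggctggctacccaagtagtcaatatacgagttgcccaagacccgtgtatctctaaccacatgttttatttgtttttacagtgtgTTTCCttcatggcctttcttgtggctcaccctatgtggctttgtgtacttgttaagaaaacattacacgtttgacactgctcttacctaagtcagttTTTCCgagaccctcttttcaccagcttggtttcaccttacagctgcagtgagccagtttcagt
Tnfrsf18: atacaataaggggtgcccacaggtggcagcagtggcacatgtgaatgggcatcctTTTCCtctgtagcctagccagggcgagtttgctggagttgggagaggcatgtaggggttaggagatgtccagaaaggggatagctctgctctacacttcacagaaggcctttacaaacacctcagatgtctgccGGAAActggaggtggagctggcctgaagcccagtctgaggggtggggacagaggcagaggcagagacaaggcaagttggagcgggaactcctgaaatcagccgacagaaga
In the windows shown, the core occurred 2 times for Foxp3, 1 time for Ctla4, 2 times for Tigit and 2 times for Tnfrsf18. It was found in 7 of the 8 windows held for the 10 genes and in 61.3% of all 32851 promoter windows of the same length. Foxp3 has a pair of starts, and the window not shown held the core 1 time. The window without the core was that of Ccr8, a gene that also rose relative to Cd3e. The AP-1 site TGANTCA, searched on both strands, was found in 0 of the 8 windows and in 7.81% of all windows. Matches describe the letters of these windows and are not binding sites.

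The lineage factor Foxp3 (ENSMUSG00000039521, plus strand of chromosome X, 7573644 to 7595245) was scarce in full colon and present in every LPMC library. Colon WT replicates 1 to 3 held 1.42, 0.163 and 0.215 CPM, from 118, 7 and 15 reads, and colon KO replicates held 0.323, 0.147 and 0.663 CPM, from 30, 9 and 99 reads. LPMC WT replicates held 6.89, 6.25 and 5.58 CPM, and LPMC KO replicates held 12.4, 2.67 and 8.5 CPM. WT and KO values overlapped in both tissues, and the KO libraries of LPMC lay on both sides of the narrow WT range. Ikzf2 (ENSMUSG00000025997, minus strand of chromosome 1, 69531214 to 69687245) encodes Helios, a transcription factor of many thymus-derived regulatory T cells. Its level was 13, 15.0 and 15.9 CPM in colon WT and 15.1, 11.9 and 28.4 CPM in colon KO. In LPMC it was 15.3, 11.7 and 17.8 CPM in WT and 16, 10.3 and 19.2 CPM in KO. Ikzf2 thus had similar levels in tissue and isolated cells, unlike Foxp3.

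Il2ra (ENSMUSG00000026770, plus strand of chromosome 2, 11642807 to 11693193) encodes CD25, the alpha chain that gives the interleukin-2 receptor its high affinity. Colon WT held 2.70, 1.67 and 0.287 CPM and colon KO 1.64, 0.408 and 1.81 CPM. LPMC WT held 17.6, 11.8 and 13.2 CPM and LPMC KO 26.0, 13 and 38.1 CPM. Both highest LPMC values were KO libraries, but KO replicate 2 lay within the WT range. Il10 (ENSMUSG00000016529, plus strand of chromosome 1, 131019845 to 131024974) encodes interleukin-10, a cytokine that limits inflammation and is made by myeloid and other T cells too. It was at 0.314, 0.232 and 0.143 CPM in colon WT and at 0.151, 0.0979 and 0.315 CPM in colon KO. LPMC held 16.6, 10.6 and 10.8 CPM in WT and 14.8, 4.63 and 16 CPM in KO. Il10 was the only one of the 10 genes whose highest LPMC value came from a WT library.

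The inhibitory receptors were among the genes most strongly represented in LPMC. Ctla4 (ENSMUSG00000026011, plus strand of chromosome 1, 60887000 to 60915832) competes with CD28 for the ligands CD80 and CD86. It was at 3.6, 1.72 and 0.53 CPM in colon WT, 0.936, 0.375 and 1.41 CPM in colon KO, 51.3, 50.8 and 42.0 CPM in LPMC WT, and 64.0, 26.7 and 83.0 CPM in LPMC KO. Tigit (ENSMUSG00000071552, minus strand of chromosome 16, 43648867 to 43664146) binds the nectin-like ligand PVR. It was at 0.953, 0.0929 and 0.401 CPM in colon WT, 0.291, 0.0979 and 0.261 CPM in colon KO, 16.8, 14.7 and 12.3 CPM in LPMC WT, and 26.6, 7.52 and 25.6 CPM in LPMC KO. For both genes the lowest LPMC library was KO replicate 2 and the 2 highest were KO replicates 1 and 3.

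Of the costimulatory receptors, Icos (ENSMUSG00000026009, plus strand of chromosome 1, 60977927 to 61000320) is a CD28 relative. It was at 3.52, 1.07 and 0.86 CPM in colon WT, 0.829, 0.13 and 1.19 CPM in colon KO, 24.8, 17.3 and 21.3 CPM in LPMC WT, and 36.7, 21.0 and 55.6 CPM in LPMC KO. Tnfrsf4 (OX40; ENSMUSG00000029075, plus strand of chromosome 4, 156013843 to 156016612) and Tnfrsf18 (GITR; ENSMUSG00000041954, plus strand of chromosome 4, 156026164 to 156028895) are neighbouring TNF receptor family genes. Tnfrsf4 was at 3.93, 3.04 and 1.7 CPM in colon WT and 1.22, 1.42 and 1.37 CPM in colon KO, with every KO library below every WT library. In LPMC it was at 10.1, 7.84 and 5.85 CPM in WT and 18.3, 4.46 and 10.3 CPM in KO, which overlapped. Tnfrsf18 was at 3.61, 2.97 and 2.46 CPM in colon WT, 2.87, 3.87 and 3.53 CPM in colon KO, 9.69, 8.06 and 5.79 CPM in LPMC WT, and 13.6, 4.98 and 12.8 CPM in LPMC KO. The antisense gene Gm16008 overlaps Tnfrsf18 and held 1266 counts over all libraries. Without a stated strand setting, its reads cannot be told apart from those of Tnfrsf18. Others of the 10 genes overlap annotated genes too. Among them, Ctla4 overlaps the same-strand pseudogene Rpl18-ps1 (857 counts). Foxp3 overlaps Ppp1r3f (379 counts), Gm36995 (126) and the same-strand Flicr (83). Overlap was by gene span, and whether exons are shared was not tested.

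Ccr8 (ENSMUSG00000042262, plus strand of chromosome 9, 120092114 to 120094906), a chemokine receptor of activated tissue regulatory T cells, was close to absent from full colon. Colon libraries held 2 to 4 reads in WT and 3 to 17 in KO. LPMC WT held 3.98, 2.65 and 3.36 CPM and LPMC KO 3.75, 2.31 and 4.96 CPM. All LPMC libraries thus lay far above all colon libraries, whose highest value was 0.114 CPM.

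**Figure D1:**
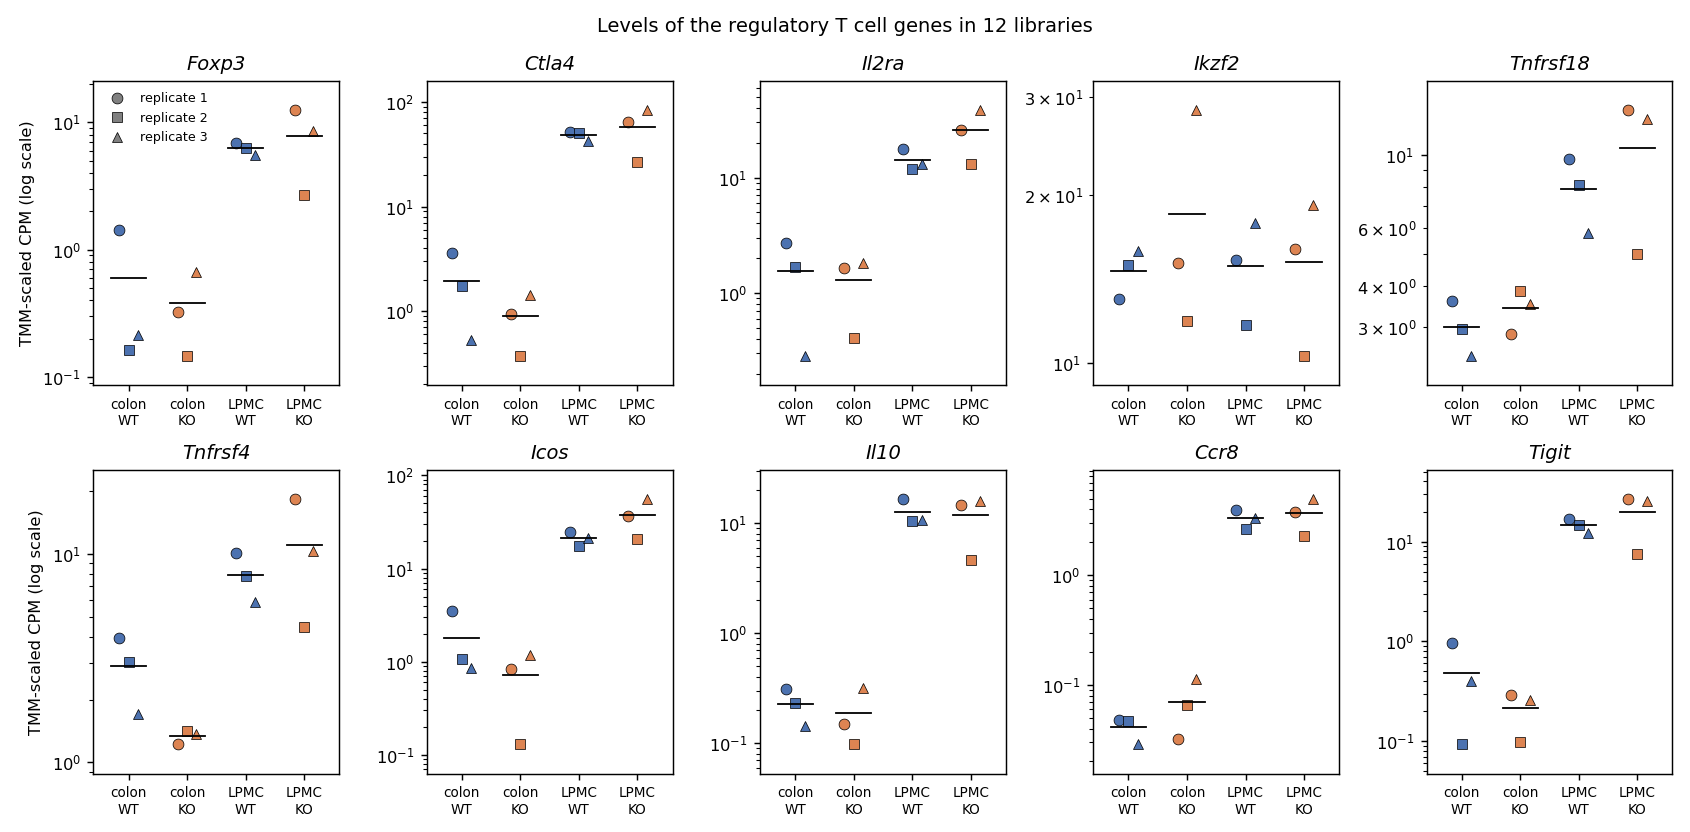
Level of each of the 10 genes in TMM-scaled CPM (vertical axis, log scale) in the 4 groups of 3 libraries. Points are libraries (circle, square and triangle for replicates 1, 2 and 3; blue WT, orange KO) and bars are group means; 9 genes lie higher in LPMC than in colon without overlap in both genotypes, and Ikzf2 does not.

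Per kilobase of exon, the order of the genes also differed between tissue and cells. In colon WT, Tnfrsf4 (2.12 ± 0.822 CPM per kb, SD, n = 3) and Tnfrsf18 (1.98 ± 0.376) led, followed by Ikzf2 (1.26 ± 0.127), Ctla4 (0.836 ± 0.664), Icos (0.53 ± 0.432), Tigit (0.525 ± 0.474), Il2ra (0.272 ± 0.212), Il10 (0.175 ± 0.0651), Foxp3 (0.131 ± 0.156) and Ccr8 (0.035 ± 0.00923). Apart from Tnfrsf18 and Ikzf2, each pair of neighbours in that order differed by less than the larger of its SDs. In LPMC WT, Ctla4 led at 20.6 ± 2.23 CPM per kb, followed by Tigit (15.9 ± 2.48), Il10 (9.68 ± 2.59), Icos (6.16 ± 1.1), Tnfrsf4 (5.81 ± 1.56), Tnfrsf18 (5.15 ± 1.28), Ccr8 (2.83 ± 0.568), Il2ra (2.48 ± 0.529), Foxp3 (1.36 ± 0.143) and Ikzf2 (1.29 ± 0.261). Icos, Tnfrsf4 and Tnfrsf18 differed there by less than the larger SD, as did Ccr8 and Il2ra, and Foxp3 and Ikzf2. Per length, Foxp3 was thus the ninth of the 10 genes in both WT groups, and it was the ninth in both KO groups as well, at 0.0825 ± 0.0573 CPM per kb in colon and 1.71 ± 1.07 in LPMC.

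In full colon, most estimates for KO against WT lay below 0, and 0 of them passed the test. Of the 9 genes tested (Ccr8 fell below the filter on low counts), 0 passed edgeR's quasi-likelihood test at an adjusted p of 0.05, where 0.00518% of all 19303 genes tested passed. DESeq2 also called 0 of the 9 (0.166% of all genes), and each tool gave 1 of them an unadjusted p under 0.05, where 7.79% of all genes had one by edgeR and 9.17% by DESeq2. By size, 7 of the 9 had a negative log2 fold change and 2 a positive one, with a median of -0.69 against 0.01 for all genes. The lowest p belonged to Tnfrsf4, at -1.13 (SE 0.39), with an unadjusted p of 0.0231 and an adjusted p of 0.632 by edgeR. It was the gene with an unadjusted p under 0.05, and the only one of the 9 whose groups did not overlap, as was true of 14.3% of all genes.

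Log2 fold changes of KO against WT were -1.35 (SE 0.85) for Icos, -1.18 (SE 0.81) for Tigit, -1.12 (SE 0.75) for Ctla4, -0.69 (SE 0.93) for Foxp3, -0.29 (SE 0.84) for Il2ra and -0.28 (SE 0.6) for Il10. Ikzf2 was at 0.32 (SE 0.34) and Tnfrsf18 at 0.17 (SE 0.31). The negative values leaned on colon WT replicate 1, the library with 1010 CPM of B cell markers. Without it the median was 0.04, Foxp3 was at 1.0 (adjusted p = 0.669 by edgeR), Il2ra at 0.4, Il10 at 0.04, Tigit at -0.21, Ctla4 at -0.3, Icos at -0.42 and Tnfrsf4 at -0.83. General T cell genes shifted the same way, with all 15 pan-T genes negative (median -1.3, 0 called by edgeR or DESeq2, 6 with an unadjusted p under 0.05 by edgeR, where 7.79% of all genes had one) and Cd3e, a chain of the T cell receptor complex, at -1.09 (SE 0.7). Without that library all 15 were still negative, with a median of -0.49, and 0 had an unadjusted p under 0.05 by edgeR. The 9 genes did not keep their direction, with 5 positive and 4 negative. The part of pan-T genes in the values of the 9 genes was not tested.

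In LPMC the sign was mostly the opposite, and again 0 of the 10 genes passed edgeR's test, where 0.0103% of all 19426 genes passed. DESeq2 called 0 as well (0.175% of all genes). Log2 fold changes of KO against WT were 0.86 (SE 0.4) for Il2ra, 0.84 (SE 0.36) for Icos, 0.47 (SE 0.5) for Tnfrsf4, 0.45 (SE 0.47) for Tigit, 0.41 (SE 0.41) for Tnfrsf18, 0.33 (SE 0.51) for Foxp3, 0.27 (SE 0.4) for Ctla4, 0.14 (SE 0.35) for Ccr8, 0.02 (SE 0.27) for Ikzf2 and -0.1 (SE 0.47) for Il10. The adjusted p was 0.998 for each by edgeR, and 0 had an unadjusted p under 0.05 (2 by DESeq2), as did 2.64% of all genes by edgeR and 3.4% by DESeq2. The median was 0.37 against 0 for all genes, and WT and KO libraries overlapped for all 10, where 7.41% of all genes did not overlap. The positive shift was not particular to these genes. All 15 pan-T genes were positive, at a larger median of 0.51, with 0 called by edgeR or DESeq2. Of 14 monocyte and macrophage genes, 13 were positive and 1 negative (median 0.91). Some lists went the other way, such as endothelial markers, with 6 of 6 negative (median -0.44). The part of pan-T genes in the values of the 10 genes was not tested. The KO group was the more scattered, with the lowest LPMC level of 8 of the 10 genes in KO replicate 2 and the highest of 9 in KO replicate 1 or 3. Pan-T genes were likewise lowest in KO replicate 2, summing to 429, 121 and 338 CPM in KO replicates 1 to 3 against 266, 200 and 186 CPM in WT. The sizes moved with single KO libraries. Without KO replicate 1 the median was 0.17, Foxp3 turned to -0.14 and Tnfrsf4 to -0.09, and Tigit was at 0.2 and Tnfrsf18 at 0.2. Without KO replicate 2 the median was 0.75, Il2ra was at 1.18, Icos at 1.13, Tnfrsf4 at 0.85, Tigit at 0.84 and Tnfrsf18 at 0.75. Without KO replicate 3 the median was 0.23, Il2ra was at 0.45, Icos at 0.44 and Tigit at 0.22, and Ctla4 turned to -0.09. Leaving out WT replicate 3 gave a median of 0.24.

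Whether the genotype difference itself differed between tissue and LPMC was tested as an interaction over all 12 libraries. By edgeR, 0 of the 10 genes passed, as did 0.0% of 20989 genes, and DESeq2 called 0 of the 10 (0.0143% of all genes). The largest estimates were those of Icos (2.16, SE 0.97, unadjusted p = 0.0481), Tigit (1.61, SE 0.94) and Tnfrsf4 (1.59, SE 0.65, unadjusted p = 0.0331), all with an adjusted p of 0.902. Icos and Tnfrsf4 were the 2 with an unadjusted p under 0.05 by edgeR, where 4.69% of all genes had one (2 of the 10 and 6.47% of all genes by DESeq2). Without colon WT replicate 1 the estimates were 1.22 for Icos, 0.66 for Tigit and 1.29 for Tnfrsf4, and without LPMC KO replicate 1 that of Tnfrsf4 was 1.01. Over all 12 omissions they ran from 1.22 to 2.73 for Icos, from 0.66 to 2.06 for Tigit and from 1.01 to 1.96 for Tnfrsf4. The 10 genes had a median of 1.06, with 8 positive, against -0.01 for all genes. Pan-T genes had a larger median, 1.58, with 15 of 15 positive and 0 called by edgeR or DESeq2. Of these 15, 6 had an unadjusted p under 0.05 by edgeR, where 4.69% of all genes had one. With 0 of the 10 genes called, their opposite signs in colon and LPMC did not pass a test of the difference.

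**Figure D2:**
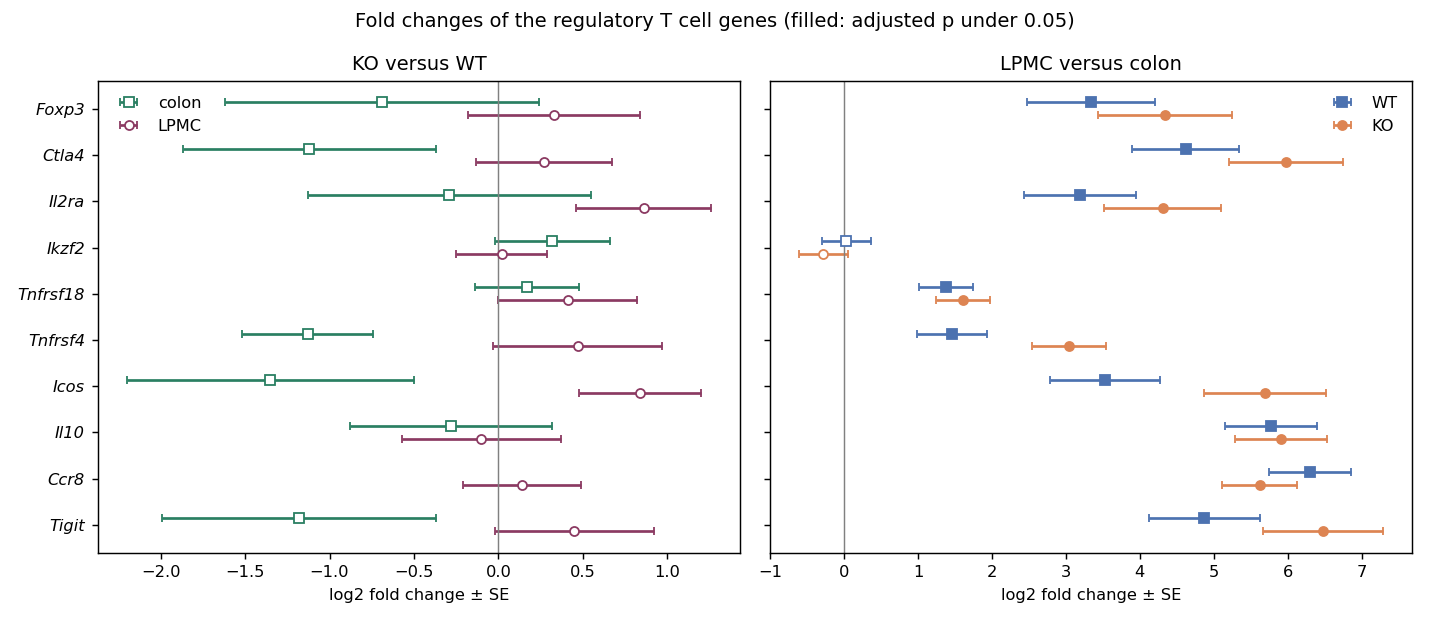
Log2 fold change with its SE (horizontal axis) of each gene for KO against WT in colon and LPMC (left) and for LPMC against colon in WT and KO (right). Filled symbols passed an adjusted p of 0.05; 0 symbols are filled on the left, and every gene except Ikzf2 is filled in both genotypes on the right, while Ccr8 was not tested in colon.

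Between LPMC and full colon, 9 of the 10 genes were higher in LPMC in each genotype and 0 were lower by edgeR's test. Among all 20989 genes tested, 17.8% were higher in WT and 14.5% in KO. The same 9 genes were higher in every LPMC library than in every colon library of the same genotype, as were 25.7% of all genes in WT and 23.9% in KO. In WT the rise was 78.8-fold for Ccr8 (log2 6.3, SE 0.55, adjusted p = 4.08e-05), a fold that rests on 2 to 4 reads per colon library, 54.6-fold for Il10 (5.77, SE 0.62), 29.3-fold for Tigit (4.87, SE 0.75) and 24.5-fold for Ctla4 (4.62, SE 0.72). It was 11.5-fold for Icos (3.53, SE 0.74), 10.2-fold for Foxp3 (3.34, SE 0.86, adjusted p = 0.0123 by edgeR) and 9.11-fold for Il2ra (3.19, SE 0.76). The TNF receptor family genes rose less, 2.74-fold for Tnfrsf4 (1.46, SE 0.47, adjusted p = 0.0325) and 2.6-fold for Tnfrsf18 (1.38, SE 0.37, adjusted p = 0.0148). Ikzf2 was at 0.03 (SE 0.33, adjusted p = 0.956 by edgeR).

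In KO the log2 rise was 6.48 (SE 0.81) for Tigit, 5.97 (SE 0.77) for Ctla4, 5.91 (SE 0.62) for Il10, 5.69 (SE 0.82) for Icos, 5.62 (SE 0.51) for Ccr8 and 4.34 (SE 0.9, adjusted p = 0.00555 by edgeR) for Foxp3. It was 4.31 (SE 0.79) for Il2ra, 3.04 (SE 0.5) for Tnfrsf4 and 1.61 (SE 0.37) for Tnfrsf18, and Ikzf2 was at -0.28 (SE 0.33, adjusted p = 0.549). The median over the 10 genes was 3.44 in WT and 4.98 in KO, against 0 for all genes in both.

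Single libraries moved several of these sizes. Without colon WT replicate 1, the log2 rise in WT was 5.02 for Foxp3, 5.81 for Tigit, 5.45 for Ctla4, 4.46 for Icos and 3.89 for Il2ra. Without colon KO replicate 3, the rise in KO was 5.03 for Foxp3, 6.53 for Il10 and 6.24 for Ccr8. In WT the call of Tnfrsf4 was lost without colon replicate 2 (adjusted p = 0.073 by edgeR), colon replicate 3 (0.107), LPMC replicate 1 (0.0991) or LPMC replicate 2 (0.0688), and that of Tnfrsf18 without colon replicate 3 (0.0557) or LPMC replicate 1 (0.053). Isolation of cells also moved with this comparison: 10 of 10 dissociation stress genes were higher in LPMC in both genotypes, where 17.8% of all genes were in WT and 14.5% in KO, with sums of 12000 to 18600 CPM against 490 to 1330 CPM in colon. Their part in the 9 rises was not tested.

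Set against Cd3e (ENSMUSG00000032093), expressed by T cells generally, 6 genes still rose from colon to LPMC and Ikzf2 did not keep pace. Cd3e itself rose from colon to LPMC by 2.26 (log2, SE 0.66, adjusted p = 0.0215 by edgeR) in WT and by 3.71 (SE 0.7, adjusted p = 0.00338) in KO. Foxp3 counts per Cd3e count were 0.628, 0.333 and 0.19 in colon WT, 0.612, 0.562 and 0.627 in colon KO, 0.888, 1.31 and 0.897 in LPMC WT, and 0.996, 0.83 and 0.947 in LPMC KO. Every LPMC library thus lay above every colon library, by 1.07 on the log2 scale (6 LPMC against 6 colon libraries, exact two-sided permutation p = 0.00216, the smallest this design gives). Colon ratios of Foxp3 rest on 7 to 118 reads of Foxp3 and 16 to 188 of Cd3e.

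Rises relative to Cd3e without overlap were also seen for Tigit (2.79), Ccr8 (2.77), Il10 (2.72), Ctla4 (2.4) and Icos (1.83 on the log2 scale), each with the same exact p. Tigit, for example, went from 0.19 to 0.551 counts per Cd3e count in colon to 1.97 to 3.07 in LPMC, and Ctla4 from 0.468 to 3.52 to 5.15 to 10.6. The ratio of Il2ra ran from 0.253 to 3.43 in colon and from 2.09 to 4.25 in LPMC, which overlapped, with a difference of 0.94 (exact p = 0.113). Ikzf2 went the other way, from 5.74 to 45.4 counts per Cd3e count in colon to 1.28 to 3.22 in LPMC, a difference of -3.22 (exact p = 0.00216) without overlap. Tnfrsf18 was at -1.69 (exact p = 0.00433) and Tnfrsf4 at -0.96 (exact p = 0.026), both with overlap. These p-values are not adjusted for the 30 ratios tested with this denominator.

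Use of Cd4 as the denominator changed the account of 4 genes. With Cd4, the co-receptor of helper and regulatory T cells, in place of Cd3e, Il2ra also rose from colon to LPMC without overlap, by 2.28 on the log2 scale (6 against 6 libraries, exact p = 0.00216). Tnfrsf4 turned to 0.38 (exact p = 0.385) and Tnfrsf18 was at -0.36 (exact p = 0.526). Ikzf2 was at -1.89 (exact p = 0.00649), and its LPMC and colon libraries overlapped. The 6 genes that rose relative to Cd3e rose relative to Cd4 as well, by 2.4 for Foxp3, 3.17 for Icos, 3.73 for Ctla4, 4.05 for Il10, 4.1 for Ccr8 and 4.12 for Tigit, each without overlap. Cd4 itself was lower relative to Cd3e in LPMC than in colon (-1.33, exact p = 0.00216). Within WT 7 of the 10 ratios to Cd4 were higher in LPMC without overlap, where 5.54% of all genes were, and within KO 7 were higher, where 2.44% were. In KO 1 was lower, that of Ikzf2, where 54.1% of all genes were. This denominator was added after the values were seen, as was Foxp3 as a denominator. Ikzf2 held 9.15 to 92.0 counts per Foxp3 count in colon and 1.29 to 3.87 in LPMC. Tnfrsf18 held 2.53 to 26.3 and 1.04 to 1.86. Tnfrsf4 was lower in LPMC too (-2.03 on the log2 scale) and Tigit higher (1.72), all without overlap. The rest of the ratios to Foxp3 overlapped. Of all genes, 87.1% were lower without overlap within WT and 90.9% within KO, and 0.515% and 0.319% were higher. These shares are for 3 against 3 libraries, where overlap is easier to avoid than in the 6 against 6 used for the ratios to Foxp3. The share of all genes for 6 against 6 was not counted.

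Within WT alone, 6 of the 10 ratios to Cd3e were higher in LPMC without overlap, where 1.72% of all genes were, and 1 was lower, where 75.2% were. Within KO, 6 were higher, where 0.657% of genes were, and 2 were lower, where 87.8% were. With libraries scaled to Cd3e in edgeR, 4 genes passed as higher in WT, where 1.61% of all genes did, namely Ccr8 (3.89), Il10 (3.15), Tigit (2.86) and Ctla4 (2.12), and Ikzf2 passed as lower (-2.79), where 74.3% of genes did. In KO, Tigit (2.65), Ctla4 (2.32), Icos (2.28) and Il10 (2.22) passed as higher, where 1.02% of genes did, and Ikzf2 (-3.93) and Tnfrsf18 (-2.53) as lower, where 89.0% of genes did. Foxp3 did not pass under this scaling, at 1.41 in WT (adjusted p = 0.165 by edgeR) and 0.62 in KO (adjusted p = 0.526). The median of all genes was -2.72 in WT and -3.71 in KO under this scaling, so each of these values is relative to a general downward shift.

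**Figure D3:**
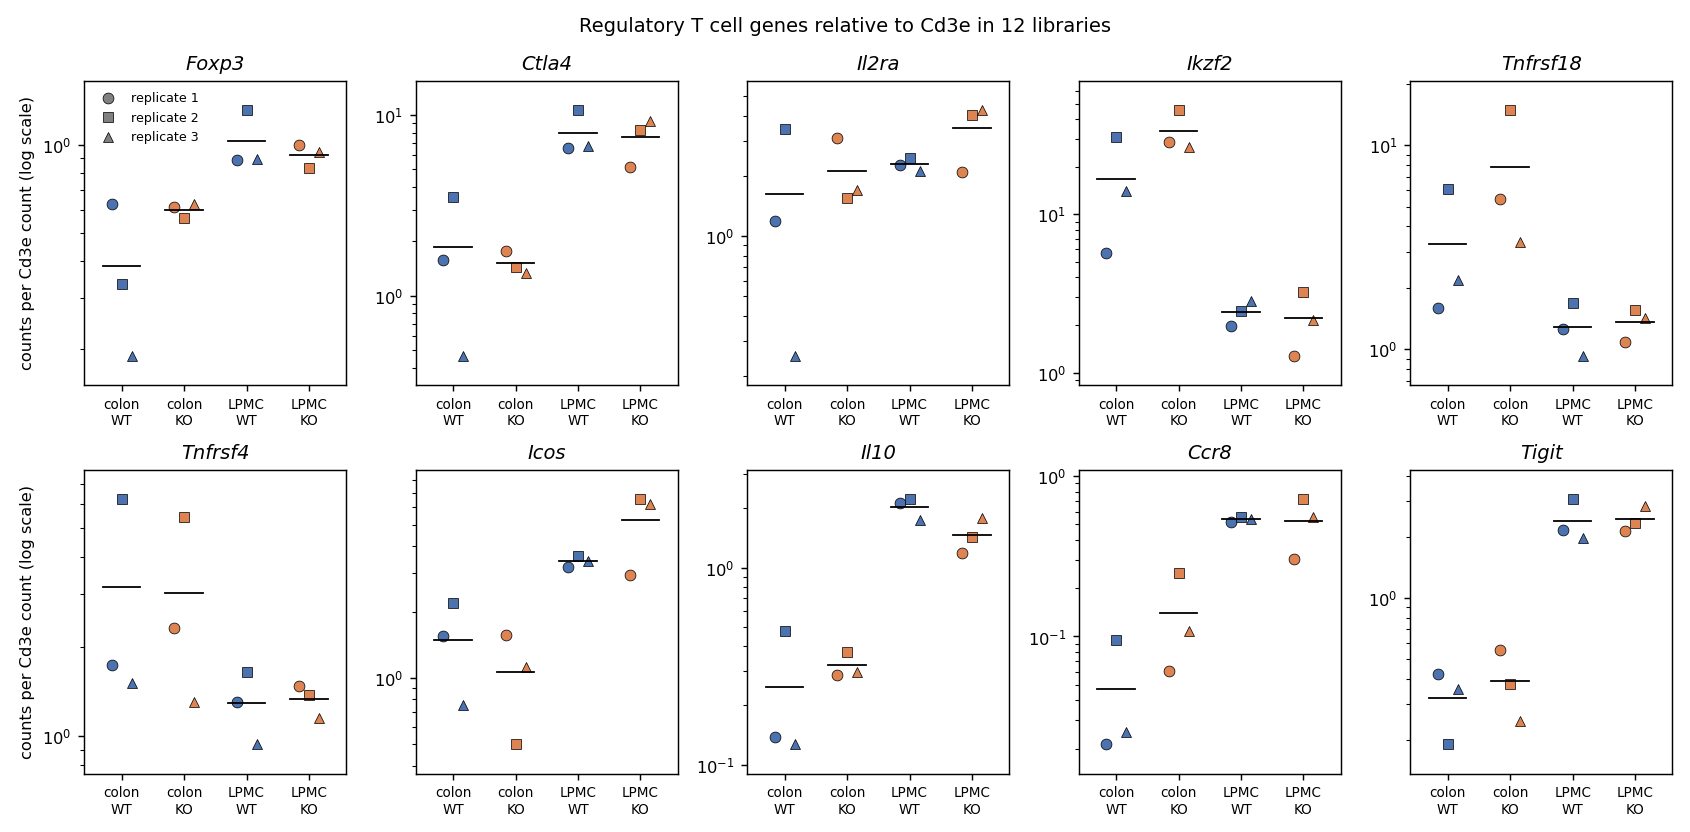
Counts of each gene per count of Cd3e in the same library (vertical axis, log scale) in the 4 groups of 3 libraries. Points are libraries (circle, square and triangle for replicates 1, 2 and 3) and bars are group means; Foxp3, Ctla4, Icos, Il10, Ccr8 and Tigit lie higher in all 6 LPMC libraries than in all 6 colon libraries, and Ikzf2 lies lower.

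Division by Cd3e also narrowed the scatter among LPMC libraries. The highest of the 6 LPMC levels of Foxp3 was 4.63 times the lowest, and the highest ratio to Cd3e was 1.58 times the lowest. For Tigit the span went from 3.54 to 1.56 times and for Tnfrsf4 from 4.1 to 1.75 times. The span was smaller for the ratio than for the level in 8 of the 10 genes in LPMC, Ikzf2 and Ccr8 being the exceptions, and in 4 of the 10 in colon. The share of all genes with a smaller span was not counted, so the narrowing cannot be called particular to these genes. B cell, NK and dendritic cell markers were also lowest in LPMC KO replicate 2 (58.4, 65.4 and 50.7 CPM). Neutrophil markers were lowest in LPMC WT replicate 2 (64.3 CPM).

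Relative to Cd3e, WT and KO libraries overlapped for each gene tested. The ratio of Foxp3 to Cd3e differed between KO and WT by -0.14 on the log2 scale in LPMC (exact two-sided permutation p = 0.7) and by 0.79 in colon (exact p = 0.4). With 3 against 3 libraries the smallest possible p is 0.1. The ratios of WT and KO overlapped for all 9 tested genes in colon, where 8.54% of all genes did not overlap, and for all 10 in LPMC, where 2.18% did not. The largest differences in LPMC were those of Il2ra and Icos (0.53 each) and Il10 (-0.48).

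With Cd4 as the denominator, 3 of the 10 genes were lower in LPMC KO than in LPMC WT without overlap, where 3.73% of all genes were. Foxp3 per Cd4 count was 0.477, 0.567 and 0.601 in WT and 0.412, 0.4 and 0.371 in KO, a log2 difference of -0.47 (exact p = 0.1). Il10 per Cd4 count ran from 0.964 to 1.16 in WT and from 0.492 to 0.7 in KO (-0.81, exact p = 0.1), and Tigit from 1.16 to 1.33 and from 0.886 to 1.13 (-0.29, exact p = 0.1). Cd4 itself was at 0.78 (SE 0.53, adjusted p = 0.998 by edgeR) in LPMC KO against WT. Mouse myeloid cells can also carry Cd4, and 14 monocyte and macrophage markers summed to 847, 307 and 935 CPM in LPMC KO against 584, 354 and 356 CPM in WT. Their part in the ratio to Cd4 was not tested.

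Gpr15 (ENSMUSG00000047293, minus strand of chromosome 16, 58717433 to 58719070), the receptor of the deleted ligand, was scarce, with 53 to 205 reads in LPMC WT and 37 to 230 in LPMC KO. Its level did not pass edgeR's test between genotypes, at -0.54 (SE 0.52, adjusted p = 0.998) in LPMC and -1.33 (SE 1.02, adjusted p = 0.721) in colon. Relative to Cd3e, Foxp3 and Cd4 it was lower in every LPMC KO library than in every LPMC WT library. This did not hold for all T cell transcripts. Relative to Cd3g the groups overlapped, since WT replicate 3 held 53 reads of Gpr15 and 693 of Cd3g, and KO replicate 2 held 37 and 424. Gpr15 counts per Cd3e count were 0.252, 0.302 and 0.166 in WT and 0.135, 0.14 and 0.103 in KO, a log2 difference of -0.9 (exact p = 0.1, the smallest possible). In 1.58% of all genes the ratio to Cd3e was lower in LPMC KO without overlap.

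Per Foxp3 count, Gpr15 was at 0.284, 0.231 and 0.185 in LPMC WT and at 0.135, 0.168 and 0.108 in LPMC KO, a log2 difference of -0.76 (exact p = 0.1), where 1.07% of all genes were lower without overlap. Per Cd4 count it was at 0.135, 0.131 and 0.111 in WT and 0.0557, 0.0673 and 0.0402 in KO, a log2 difference of -1.23 (exact p = 0.1). The difference per Cd3e count ran from -1.14 to -0.71 when each library was left out in turn. In colon, where Gpr15 held 8 to 40 reads in WT and 0 to 36 in KO, the ratios to Cd3e overlapped (-1.22, exact p = 0.4). The further denominators and the omissions were chosen after the values were seen.

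**Figure D4:**
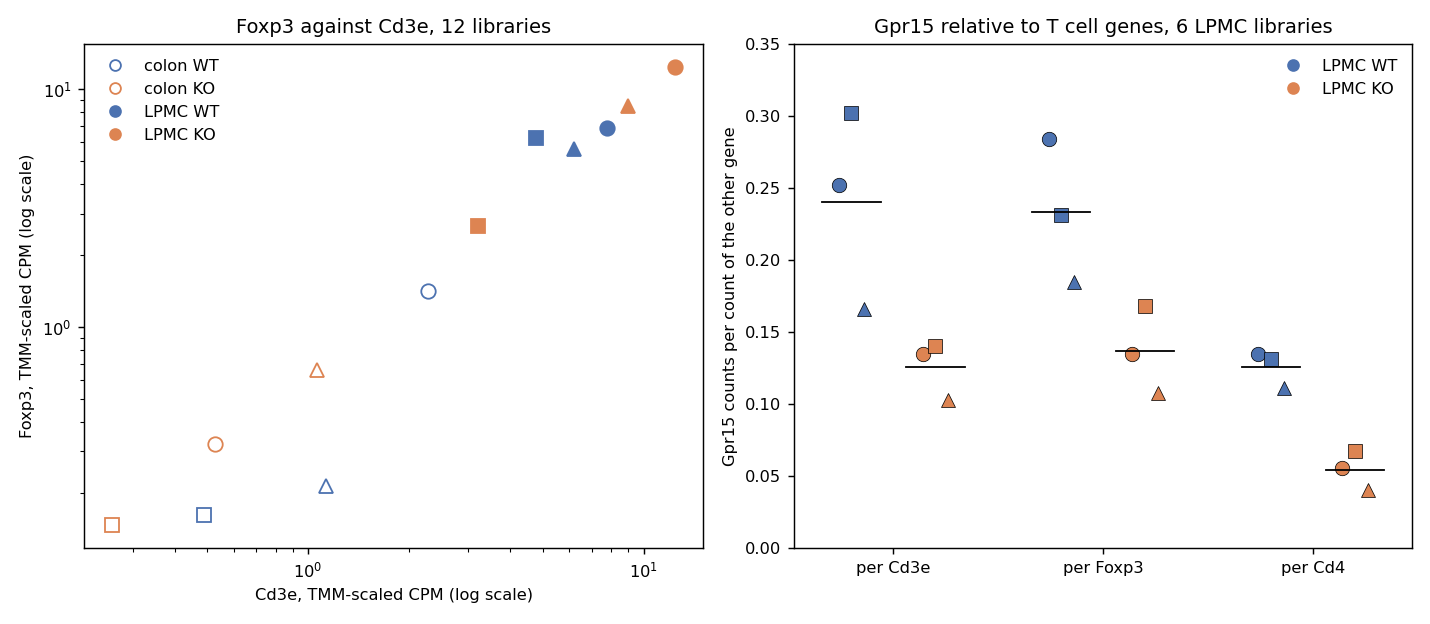
Left, Foxp3 against Cd3e in TMM-scaled CPM (both axes log scale) in the 12 libraries (open colon, filled LPMC; blue WT, orange KO; circle, square and triangle for replicates 1, 2 and 3). Right, Gpr15 counts per count of Cd3e, Foxp3 or Cd4 in the 6 LPMC libraries with group means as bars; for each denominator the 3 KO libraries lie below the 3 WT libraries.

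Other genes reported high in regulatory T cells gave no calls between genotypes. Of 23 such genes in the table, 21 were tested in colon, 13 with a negative and 8 with a positive log2 fold change (median -0.3), and 0 were called or had an unadjusted p under 0.05 by edgeR. Their lowest p-values in colon belonged to the transcription factors Irf4 (-3.04, SE 1.38) and Batf (-1.28, SE 0.62), to Nrp1, a surface receptor of thymus-derived regulatory T cells (1.14, SE 0.55), and to the inhibitory receptor Lag3 (-1.03, SE 0.51). In LPMC, 16 of the 23 were positive (median 0.17), with Gata3 at 0.52 (SE 0.29), the protease gene Gzmb at 0.73 (SE 0.41), Bach2 at 0.76 (SE 0.43) and the costimulatory receptor Tnfrsf9 at 0.57 (SE 0.4). Again 0 were called or had an unadjusted p under 0.05. Irf4 and Batf are also genes of B cells, whose markers stood high in colon WT replicate 1. Without that library the median of the 21 in colon was 0.19, Irf4 was at 0.12, Batf at -0.82, Lag3 at -0.81 and Nrp1 at 1.64 (unadjusted p = 0.0286, adjusted p = 0.498 by edgeR). Between LPMC and colon, 8 of the 23 were higher and 1 was lower in WT, where 17.8% of all genes were higher and 17.5% lower. In KO 13 were higher and 1 was lower, where 14.5% and 13.6% of all genes were. Nrp1 was among the higher ones in WT, at 3.56 (SE 0.5, adjusted p = 0.000566 by edgeR). Endothelial cells carry Nrp1 too, and their 6 markers summed to 27.4 to 74.4 CPM in colon and 130 to 361 CPM in LPMC, whose part in the rise was not tested.

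Ligands of these receptors come from antigen-presenting, epithelial and other cells. Of 11 ligand genes, 7 were tested in colon and 9 in LPMC, and 0 were called or had an unadjusted p under 0.05 by edgeR in either. In colon, Icosl, the ligand of Icos, was at -1.22 (SE 0.54), Nectin2 at -0.36 (SE 0.24) and Pvr, the main ligand of Tigit, at -0.24 (SE 0.2). Without colon WT replicate 1, Icosl was at -0.27. In LPMC, the Ctla4 ligands Cd80 and Cd86 were at 0.56 (SE 0.59) and 0.49 (SE 0.61), and the Ccr8 ligand Ccl1 was at 0.44 (SE 0.58).

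Among 9 genes of the interleukin-2 receptor and its signalling, 0 were called by edgeR or DESeq2 in colon or LPMC, and 2 had an unadjusted p under 0.05 in colon, where 7.79% of all genes had one by edgeR. Il2rg, the shared gamma chain, was at -2.04 (SE 0.83) and the feedback inhibitor Socs1 at -1.79 (SE 0.76) in colon KO, and Socs1 was at 0.62 (SE 0.4) and the beta chain Il2rb at 0.54 (SE 0.43) in LPMC KO. Without colon WT replicate 1, Il2rg in colon was at -0.82 and Socs1 at -2.03. Between LPMC and colon, 6 of the 9 were higher and 1 was lower in WT, where 17.8% and 17.5% of all genes were, and 7 were higher and 0 lower in KO, where 14.5% and 13.6% were. In WT, Il2rb was at 4.13 (SE 0.63, adjusted p = 0.00103 by edgeR). Of 6 genes of the interleukin-10 receptor and its signalling, 0 were called between genotypes by edgeR or DESeq2. Bcl3, a nuclear cofactor of NF-kB induced by interleukin-10, was the only one with an unadjusted p under 0.05, in colon, at -0.8 (SE 0.19, unadjusted p = 0.00359, adjusted p = 0.632 by edgeR). In LPMC, Bcl3 was at 0.21 (SE 0.16) and the ligand-binding chain Il10ra at 0.79 (SE 0.55).

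Of 13 T cell homing receptors, 0 were called between genotypes by edgeR or DESeq2, with 9 negative in colon (median -0.98) and 10 positive in LPMC (median 0.52). Of the 13, 0 had an unadjusted p under 0.05 in colon and 2 in LPMC, where 2.64% of all genes had one by edgeR. In LPMC KO, the chemokine receptor Cxcr6 was at 0.76 (SE 0.23, unadjusted p = 0.0154) and Itgae, the CD103 integrin chain that binds epithelial cadherin, at -0.9 (SE 0.35, unadjusted p = 0.0377), both with an adjusted p of 0.998 by edgeR. In colon KO, the lymph node homing receptor Ccr7 was at -1.92 (SE 0.95), the chemokine receptor Ccr6 at -3.86 (SE 1.99) and the integrin chain Itgb7 at -1.53 (SE 0.83). The 13 genes summed to 162 CPM in colon WT replicate 1, the library high in B cell markers, and to 10.5 to 53.2 CPM in the rest of the colon libraries. Without that library 9 of the 13 were positive (median 0.26), with Ccr7 at -0.81, Ccr6 at 0.62 and Itgb7 at -0.33.

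To see which transcripts varied with Foxp3 from library to library, Pearson's r was taken over the 12 libraries between deviations of log2 CPM from the 4 group means, for 14016 genes. This describes likeness within groups, where points share library depth and cell makeup. Colon WT replicate 1, high in B cell markers, held the highest colon level of Foxp3, and its part in these correlations was not tested. The 8 nearest genes were Sh2d2a, a T cell signalling adaptor (r = 0.981), Tmed8 (0.97), Abi3 (0.967), Pou2f2 (0.964), Nsmaf (0.962), Ripor2 (0.961), Sept6 (0.958) and Gm8369 (0.956). Pou2f2 averaged 14.1 CPM in colon WT and 2.2 in colon KO, Ripor2 9.14 and 1.84, and Nsmaf 25.9 and 27.6. Cd3e ranked 65 with r = 0.926. Of the genes listed with Foxp3, Tigit was nearest (0.881, rank 190), followed by Icos (0.834), Ctla4 (0.821), Il10 (0.798), Il2ra (0.694), Tnfrsf4 (0.655), Tnfrsf18 (0.59) and Ikzf2 (0.44), while Ccr8 lay below the level needed to be ranked. Within groups, Foxp3 thus lay nearer to the general T cell gene Cd3e than to any other ranked gene of its own list, and Ikzf2 lay farthest away.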

How the data were processed

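RNA was measured in 12 mouse libraries, 3 per group, with groups and replicate numbers taken from the sample titles. Per the labels' protocols, strand-keeping mRNA libraries were made with a TruSeq kit and read on a HiSeq. The submitters' processing notes name STAR and GRCm38 (mm10), but the version of STAR, counting tool, annotation and strand setting are not given in the sources read. The authors deposited whole-number read counts per Ensembl gene, with no normalization. Of 54109 identifiers, 54042 matched GENCODE M21 and 67 did not. Even values made up 65.0 to 75.3% of counts from 1 to 50, so counts need not be independent fragments. Replicate pairs differed by a chi-square of 75.5 to 602 per gene, beyond sampling noise, and all 12 libraries were kept.

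Counts were tested in R 4.3.3 with edgeR 4.0.16 (TMM, filterByExpr with a minimum count of 10, robust quasi-likelihood F-test), with Benjamini-Hochberg adjustment over all genes and a threshold of 0.05. KO was compared with WT on the 6 libraries of each tissue, and LPMC with colon and the interaction on all 12. The SE of a log2 fold change was its size over the root of F. TMM-scaled CPM gives levels, per kb of the union of annotated exons where genes are compared. Ratios between genes are of counts, tested on log2 with a pseudocount of 0.5 by exact two-sided permutation of libraries. The procedure was tested on simulated data. Alternatives were DESeq2 1.42.0, limma 3.58.1 voom, DESeq2 size factors (RLE), no filter, a replicate block, scaling to Cd3e, the 6 or 12 libraries in the fit, other denominators and pseudocounts, and leaving out each library. The 10 genes and the 22 lists were chosen with earlier results of these data known. Outside the 10 genes, Cd3e, Gpr15 and the deleted gene, up to 4 genes per list of lowest p for each genotype comparison were named, fewer where fewer were needed. Values of such genes between LPMC and colon were named for Nrp1 and Il2rb only. Cd4 and the genes nearest to Foxp3 are also named. Gm16008, Rpl18-ps1, Ppp1r3f, Gm36995 and Flicr are named because they overlap Tnfrsf18, Ctla4 or Foxp3.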

Additional observations from a re-analysis of the deposited data

How the results depend on the processing

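Counts of called genes among the 10 stayed at 0 for genotype in colon, in LPMC and for the interaction under every alternative run, and at 9 in KO between LPMC and colon except with scaling to Cd3e (6). In WT that count was 9 by edgeR, 8 with limma voom, ran from 7 to 9 with 1 library left out, and was 5 with scaling to Cd3e. Over all genes, DESeq2 called 32 against 1 by edgeR in colon, 34 against 2 in LPMC and 3 against 0 for the interaction, and scaling to Cd3e gave 9, 49 and 43, and 15923 and 18892 between LPMC and colon in WT and KO. Scaling to Cd3e turned several values. For colon KO against WT it gave a median of 0.41, Foxp3 0.63, Il2ra 0.41, Il10 0.45 and Tigit 0.24, and for LPMC Foxp3 -0.16, Ctla4 -0.08, Ikzf2 -0.13 and Ccr8 -0.04. Between LPMC and colon it gave a median of 1.3, Ikzf2 -2.79, Tnfrsf18 -1.34 and Tnfrsf4 -1.27 in WT, and a median of 1.38, Tnfrsf18 -2.53 and Tnfrsf4 -1.16 in KO. The interaction became -0.79 for Foxp3, -1.19 for Tnfrsf18, -0.93 for Il10 and -0.21 for Tigit. With limma voom, Il2ra in colon was 0.07 and Ikzf2 between LPMC and WT colon -0.01, and for Tnfrsf4 in the latter comparison voom gave an adjusted p of 0.0519. With Cd4 as denominator the ratio of Foxp3 in LPMC KO against WT was -0.47. From colon to LPMC the ratio of Tnfrsf4 to Cd4 was 0.38. The cause of the changes with Cd3e scaling, voom and Cd4 was not tested.

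Equal replicate numbers were not used as pairs, and the labels do not say whether they mark the same mouse. Same-numbered WT and KO libraries correlated at 0.04, -0.13 and -0.09 in colon and at 0.24, -0.06 and -0.23 in LPMC, in deviations from group means. Between colon and LPMC the values were 0.13, 0.08 and 0.16 in WT, where each library correlated best with its own number, and 0.06, 0.3 and 0.18 in KO. A replicate block left the number of called genes at 0 in colon, LPMC and the interaction and at 9 between LPMC and colon in both genotypes. It gave -0.01 for Ikzf2 in LPMC KO against WT and -0.01 for Ikzf2 between LPMC and colon in WT.

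Leaving out 1 library at a time gave a median of -1.15 to 0.04 in colon KO against WT and of 3.06 to 4.74 between LPMC and colon in WT. In colon, Foxp3 ran from -1.36 to 1.0, Il2ra from -0.77 to 0.4, Ikzf2 from -0.13 to 0.55 and Il10 from -0.88 to 0.04. In LPMC, Foxp3 ran from -0.14 to 0.74, Ctla4 from -0.09 to 0.62, Ikzf2 from -0.19 to 0.24, Tnfrsf4 from -0.09 to 0.85, Il10 from -0.39 to 0.28 and Ccr8 from -0.14 to 0.39. Ikzf2 between LPMC and colon ran from -0.11 to 0.18 in WT and from -0.54 to 0.17 in KO. The interaction ran from -0.69 to 1.69 for Foxp3, -0.19 to 0.76 for Il10, -0.54 to 0.14 for Ikzf2 and 0 to 0.57 for Tnfrsf18. An omission added after the values were seen, of colon WT replicate 1, turned Irf4 to 0.12 and Ccr6 to 0.62 in colon. Depth limits Foxp3, Il10, Tigit and Ccr8 in colon, where libraries held as few as 7, 6, 4 and 2 reads. With 3 libraries per group, no exact test of genotype could pass 0.05.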
